A study of Homo sapiens with 27 samples.

Results

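Expression of the MYCN and MAX network was followed in a MYCN-amplified human neuroblastoma line, SK-N-BE(2)c, across hypoxia and mTOR inhibition. The network was taken as 8 of 17055 named genes, MYCN, MYC, MAX, MXI1, MXD3, MXD4, MNT and MLX, with every probe that the annotation gives them, which are 17 of the 48107 probes of the deposited intensity table. Of these, 16 rose above background on at least 3 arrays and were tested, and each of the 8 genes had at least 1 such probe. Cells had received PP242, which blocks the mTOR kinase at its ATP site, and were kept in hypoxia for 24 h (4 arrays), 48 h (4 arrays) or 72 h (4 arrays). They were set against cells in hypoxia with DMSO for 24 h (3 arrays), 48 h (4 arrays) or 72 h (4 arrays). A 0 h control of the same line (4 arrays) carries a label that names neither vehicle nor oxygen level. In comparisons with it, the effects of hypoxia, vehicle and culture time cannot be told apart. All 27 arrays come from this 1 line, and no label states that samples of a group were grown separately. The p-values therefore reflect only how these samples scatter, which may be technical.

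Proteins of the MYC family bind DNA as dimers with MAX at a short palindrome, the E-box, and activate genes of growth, ribosome assembly and cell division. MAX also pairs with MXI1, MXD3, MXD4 and MNT, which bring SIN3 and histone deacetylases to the same sites and repress them, so the balance of partners sets the output. MLX is a MAX-like protein that pairs with glucose-sensing activators and with MNT or MXD4. In MYCN-amplified neuroblastoma MYCN takes the place that MYC holds in many tumours.

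Array medians of intensity lay between 98 and 113 and the brightest signals between 19528 and 25918, with 20729 to 22843 probes per array above background. Of 13 sympathoadrenal markers, 10 had a probe, and all 10, among them PHOX2A, GATA3, TH and CHGA, were above background on all 27 arrays. Of 17 markers of other cells (Schwann, immune, endothelial, blood and fibroblast or muscle genes), 14 had a probe, 9 were tested and 2 (ACTA2 and CD14) were above background on all 27 arrays. Arrays that carry the sample number 4 stood apart from those with the number 1 in 4566 of 12664 genes (36.1%), with the group taken into account, and DMSO at 24 h has no number 4. This touched the network directly. In limma, number 4 minus number 1 was -0.43 for MYCN (SE 0.099, adjusted p = 0.000948), -0.69 for MAX (SE 0.11, adjusted p = 2.29e-05), 0.63 for MNT (SE 0.11, adjusted p = 3.17e-05) and 0.32 for MXD4 (adjusted p = 0.0122), all on the log2 scale. Results are therefore also given without the arrays numbered 4 where that ends a call.

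The promoters of the 5 network genes that passed in at least 1 PP242 or hypoxia comparison, with every listed start, and that of MYCN are shown as the 250 bases before the RefSeq start on GRCh38.p14, on the gene's strand. Capitals mark the E-box CACGTG or, in MXI1, the core ACGTG that hypoxia-inducible factors and MYC dimers can both include, read on the other strand as CACGT. The 3 MXI1 starts have the windows chr10:110207355-110207604, chr10:110209981-110210230 and chr10:110225746-110225995 (plus strand), MXD3 is chr5:177312753-177313002 (minus), MXD4 is chr4:2262110-2262359 (minus), MNT is chr17:2401061-2401310 (minus), MLX is chr17:42566850-42567099 (plus) and MYCN is chr2:15940300-15940549 (plus).
MXI1 start 1: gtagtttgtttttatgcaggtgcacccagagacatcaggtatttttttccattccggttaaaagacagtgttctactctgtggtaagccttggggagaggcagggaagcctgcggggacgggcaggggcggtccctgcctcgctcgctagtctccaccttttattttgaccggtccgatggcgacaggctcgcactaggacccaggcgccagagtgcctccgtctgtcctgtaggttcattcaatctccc
MXI1 start 2: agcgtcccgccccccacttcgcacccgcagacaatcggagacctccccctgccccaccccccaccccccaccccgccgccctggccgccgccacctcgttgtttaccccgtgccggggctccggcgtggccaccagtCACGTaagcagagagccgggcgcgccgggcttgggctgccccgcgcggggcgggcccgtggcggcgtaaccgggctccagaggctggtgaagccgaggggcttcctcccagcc
MXI1 start 3: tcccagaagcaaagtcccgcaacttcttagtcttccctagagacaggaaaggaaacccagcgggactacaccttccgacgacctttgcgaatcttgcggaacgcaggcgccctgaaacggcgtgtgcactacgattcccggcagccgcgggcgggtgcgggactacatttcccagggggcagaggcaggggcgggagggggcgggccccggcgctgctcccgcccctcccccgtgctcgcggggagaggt
MXD3: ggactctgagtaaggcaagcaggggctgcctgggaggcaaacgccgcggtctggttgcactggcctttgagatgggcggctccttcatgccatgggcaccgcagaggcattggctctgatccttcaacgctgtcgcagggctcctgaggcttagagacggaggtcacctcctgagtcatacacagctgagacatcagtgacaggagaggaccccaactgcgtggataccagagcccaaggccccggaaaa
MXD4: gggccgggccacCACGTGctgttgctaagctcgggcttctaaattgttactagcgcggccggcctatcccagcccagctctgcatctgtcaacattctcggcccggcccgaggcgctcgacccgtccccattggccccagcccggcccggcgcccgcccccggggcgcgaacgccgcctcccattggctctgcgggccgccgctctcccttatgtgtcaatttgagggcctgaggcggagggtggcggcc
MNT: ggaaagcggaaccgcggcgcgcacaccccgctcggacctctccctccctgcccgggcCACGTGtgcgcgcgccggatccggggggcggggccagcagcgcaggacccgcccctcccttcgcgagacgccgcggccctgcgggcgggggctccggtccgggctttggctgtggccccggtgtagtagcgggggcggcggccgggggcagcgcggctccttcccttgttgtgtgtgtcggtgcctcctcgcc
MLX: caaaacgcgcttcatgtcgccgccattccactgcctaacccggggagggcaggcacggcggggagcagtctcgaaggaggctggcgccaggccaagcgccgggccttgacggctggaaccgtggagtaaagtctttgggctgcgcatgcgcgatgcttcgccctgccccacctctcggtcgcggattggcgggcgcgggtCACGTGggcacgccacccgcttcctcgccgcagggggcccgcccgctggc
MYCN: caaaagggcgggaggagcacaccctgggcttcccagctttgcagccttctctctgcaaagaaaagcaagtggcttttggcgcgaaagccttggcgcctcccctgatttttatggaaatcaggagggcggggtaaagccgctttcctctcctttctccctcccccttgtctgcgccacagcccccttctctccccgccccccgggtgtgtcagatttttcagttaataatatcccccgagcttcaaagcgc
The search covered 7 members and 10 windows and left out MYC. In it CACGTG was found in 3 members, 238 bases before the start in MXD4, 193 in MNT and 50 in MLX. Of 35116 such windows in the table, 2228 (6.34%) hold CACGTG. The shorter ACGTG, on either strand and overlapping every CACGTG, was found in 5 of the 10 windows, adding the second MXI1 window (113 bases before its start) and 1 MAX window (22 bases), against 6501 (18.5%) of all windows. A match is a description of these letters only, and which MXI1 start is in use is not given here.

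MYCN, the oncogene of this line, gave the brightest signal of the network and passed in none of the 6 PP242 and hypoxia comparisons. Its first probe (ILMN_2219767; gene at chr2:15940550-15947004, GRCh38.p14) ranged from 9213 to 25428 in intensity, with a median of 18790, and ranked between 1 and 239 on its array, near the top of the signal range as the choice of genes stated. On the normalized log2 scale the 7 group means lay between 14.01 (DMSO 72 h) and 14.36 (DMSO 24 h), a span of 0.35 against a within-group SD of 0.25. At 24 h the PP242 arrays read 14.42, 14.46, 14.09 and 13.87, against 14.46, 14.31 and 14.3 for DMSO. At 48 h they read 14.38, 14.24, 14.28 and 13.91 for PP242, against 14.27, 14.26, 14.01 and 14.24 for DMSO. The groups overlapped at both times, and in PP242 the lowest array was number 4. At 72 h the PP242 arrays read 14.36, 14.44, 14.16 and 13.7, against 13.95, 14.19, 13.94 and 13.97 for DMSO, and the control read 14.39, 14.22, 14.13 and 13.53.

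The threshold was an adjusted p of 0.05 over 12664 genes in limma. PP242 over DMSO was -0.15 at 24 h (95% confidence interval -0.53 to 0.23, adjusted p = 0.652), 0.01 at 48 h (-0.34 to 0.36, adjusted p = 0.982) and 0.15 at 72 h (-0.2 to 0.5, adjusted p = 0.698). The arrays overlapped at 72 h too. Differences at this level can be compressed by the normalization. The probe was the brightest of all on 3 of 27 arrays and among the 10 brightest on 9, and quantile normalization set the brightest probe of every array at 14.44 to 14.46, so these intervals are no bound on the change of the transcript. With each array scaled to 1 median instead, PP242 over DMSO was -0.11, 0.016 and 0.074 (adjusted p = 0.769, 0.979 and 0.903). DMSO over the control was 0.29 at 24 h (adjusted p = 0.531), 0.12 at 48 h (adjusted p = 0.721) and -0.056 at 72 h (adjusted p = 0.87), and with 1 median 0.4, 0.26 and 0.076 (adjusted p = 0.508, 0.462 and 0.842). Neither scaling shows that the transcript stayed level. From 24 to 72 h in DMSO the 2 sets of arrays did not overlap, and the difference was -0.35 (interval -0.72 to 0.033, adjusted p = 0.229). MYCN read lower on arrays numbered 4, which DMSO at 24 h lacks, and this limits each comparison with that group. Blocked by sample number in limma, PP242 over DMSO at 24 h was -0.056 (adjusted p = 0.81). With the block, DMSO at 24 h over the control was 0.2 (adjusted p = 0.505), and DMSO 72 over 24 h was -0.25 (adjusted p = 0.185). In such bulk samples fewer cells of a kind and less RNA per cell cannot be told apart.

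The second MYCN probe (ILMN_1653761; 1300 to 5319 in intensity) had its lowest group mean in the control (11.26) and its highest in PP242 at 24 h (11.92), a different order from the first probe. It passed in 0 of the 6 PP242 and hypoxia comparisons when each probe was tested alone in limma, the largest difference being 0.41 for DMSO at 24 h over the control (SE 0.22, adjusted p = 0.48). Over the 7 group means, the genes most like MYCN were AAMDC (Pearson's r = 0.98), ADPGK (0.95) and MRGPRE (0.946), as a description of 7 points.

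**Figure D1:**
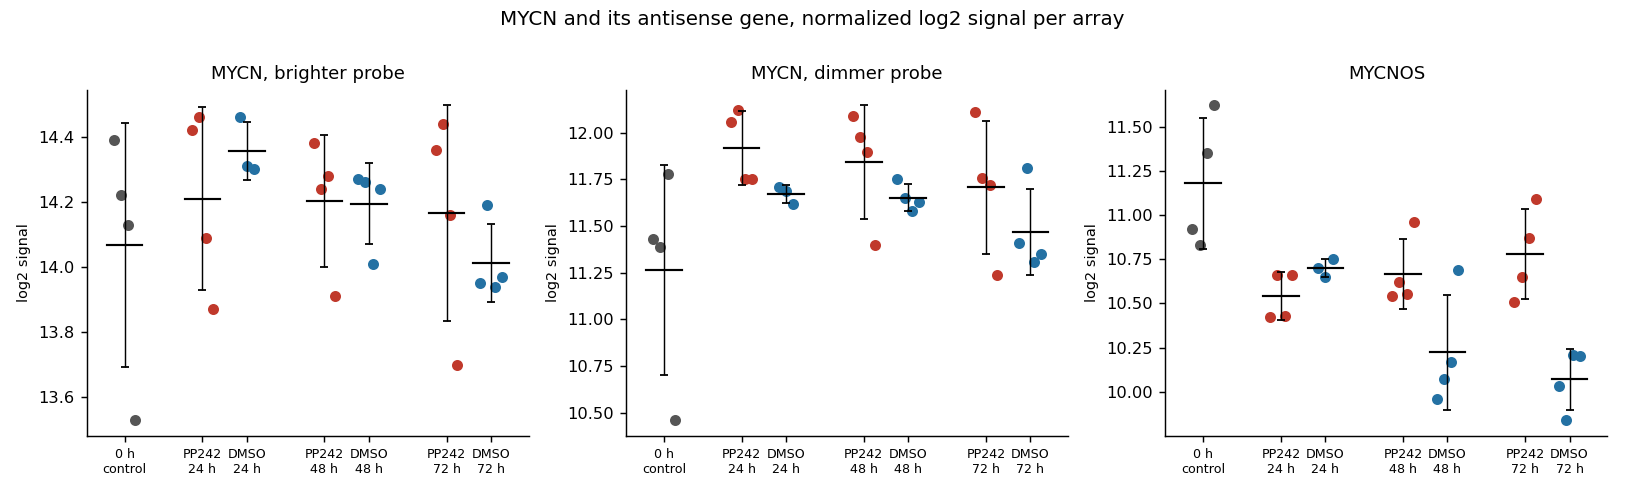
Normalized log2 signal (y axis) of both MYCN probes and of MYCNOS on each array by group (x axis), with a point per array, a line for the mean and bars for the SD. For the brighter MYCN probe (means 14.01 to 14.36), PP242 overlaps DMSO at each time, and each DMSO group overlaps the control. Its DMSO arrays at 24 h lie above those of the later DMSO groups, without overlap. MYCNOS lies lowest in DMSO at 72 h (10.07) and highest in the 0 h control (11.18).

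MYCNOS, the antisense gene at the MYCN locus, was lower in DMSO at 48 and 72 h than in the 0 h control. With PP242 it was higher than with DMSO at 72 h. Its transcript in RefSeq overlaps MYCN by 1884 bases. Which strand and stretch its probe (ILMN_3226059) covers is not given here, so its signal is that of the named probe. The arrays read 10.92, 10.83, 11.35 and 11.62 in the control, 10.7, 10.65 and 10.75 in DMSO at 24 h, 9.96, 10.07, 10.17 and 10.69 at 48 h, and 10.03, 9.84, 10.21 and 10.2 at 72 h. Each DMSO group thus lay below every control array. Relative to the control, MYCNOS fell by 0.96 at 48 h (SE 0.17, adjusted p = 0.000217) and by 1.11 at 72 h (SE 0.17, adjusted p = 1.21e-05), while at 24 h the difference was -0.48 (adjusted p = 0.283). At 72 h the PP242 arrays, 10.51, 10.65, 10.87 and 11.09, all lay above those of DMSO, and MYCNOS was higher by 0.71 (SE 0.17, adjusted p = 0.00602). At 48 h PP242 over DMSO was 0.45 (adjusted p = 0.096; 0.00642 when arrays were blocked by sample number), and at 24 h the groups overlapped. The change of the PP242 effect from 24 to 72 h was 0.87 (adjusted p = 0.0154). MYCNOS also differed by sample number, with number 4 minus number 1 at 0.46 (limma, SE 0.092, adjusted p = 0.000233). It was highest on array 4 in 4 of the 6 groups that have one. DMSO at 24 h has none, which limits each MYCNOS comparison that uses that group. Of the 5 listed neighbours of MYCN on chromosome 2, 3 were tested, and besides MYCNOS the vesicle transport gene NBAS was higher with PP242 at 24 h (0.84, SE 0.19, adjusted p = 0.00199). NBAS was also higher in DMSO than in the control at 48 h (0.56, adjusted p = 0.0357) and 72 h (0.49, adjusted p = 0.045), calls that leaving out any of 6 single arrays ended in each case.

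MYC, the paralogue of MYCN, was close to background. Its better probe (ILMN_1680618) was above background on 9 of 27 arrays, with intensities of 93 to 131, and on 0 of the 4 control arrays and 0 of the 4 DMSO arrays at 72 h. The numbers above background were 2 of 4 (PP242) and 1 of 3 (DMSO) at 24 h, 3 of 4 and 2 of 4 at 48 h, and 1 of 4 and 0 of 4 at 72 h. The second probe was above background on 0 arrays. No fold change is given for MYC, and it is not drawn among the changes.

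MAX, the shared partner, was measured by 4 probes listed under different transcripts, and none passed in any of the 6 PP242 and hypoxia comparisons. The probe used for the gene (ILMN_2363426; 112 to 225 in intensity, gene at chr14:65006101-65102695) had group means between 6.16 (control) and 6.66 (DMSO 24 h), with a within-group SD of 0.35. PP242 over DMSO was -0.042, 0.34 and 0.11 at 24, 48 and 72 h (adjusted p = 0.936, 0.414 and 0.856). Blocked by sample number in limma, the 24 h difference was 0.08 (adjusted p = 0.765). A second probe (ILMN_1706546) read 6.15, 5.78, 6.92 and 7.07 in PP242 at 24 h, against 5.87, 5.52 and 5.92 in DMSO, a difference of 0.71 (SE 0.28, adjusted p = 0.079 over 16451 probes). The 2 high PP242 arrays are those numbered 3 and 4. The first and second probes also differed in sign for DMSO over the control at 24 h (0.5 and -0.43), and neither value passed. The genes most like MAX over the 7 group means were TFB2M (0.975), BTF3L4 (0.963) and RGS16 (0.958).

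In the 6 PP242 and hypoxia comparisons the calls among the 8 genes were those of MXI1, MXD3, MXD4, MNT and MLX, as follows. In PP242 over DMSO, 2 of the 8 passed at 24 h (1 higher, 1 lower; 21.6% of all genes passed, 10.4% higher and 11.3% lower), 1 at 48 h (10.2% of all genes; blocked by sample number, 3, against 19.8% of all genes) and 0 at 72 h (8.88% of all genes; 2 of the 8 had an unadjusted limma p under 0.05). In DMSO over the control, 2 of the 8 passed at 24 h (1.01% of all genes), 2 at 48 h (13.8% of all genes, 6.71% higher and 7.11% lower; blocked by sample number, 3, with MXD4 added at an adjusted p of 0.0158) and 3 at 72 h (24.5% of all genes, 11.2% higher and 13.3% lower). With 8 genes, 1 call is already a larger share than several of these percentages, so the counts say little about the network as a set. The directions over all genes depend on the scaling. With each array scaled to 1 median, the share of calls that were higher was 23.8%, 19.7% and 29.1% for PP242 over DMSO at 24, 48 and 72 h (47.8%, 43.4% and 38.4% in quantile normalization). It was 29.5% and 29.2% for DMSO over the control at 48 and 72 h (48.6% and 45.7%), 23.5% for DMSO 72 over 24 h (47.1%), and 64.1% and 67.8% for the PP242 effects at 48 and 72 h minus 24 h (53% and 49.8%).

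**Figure D2:**
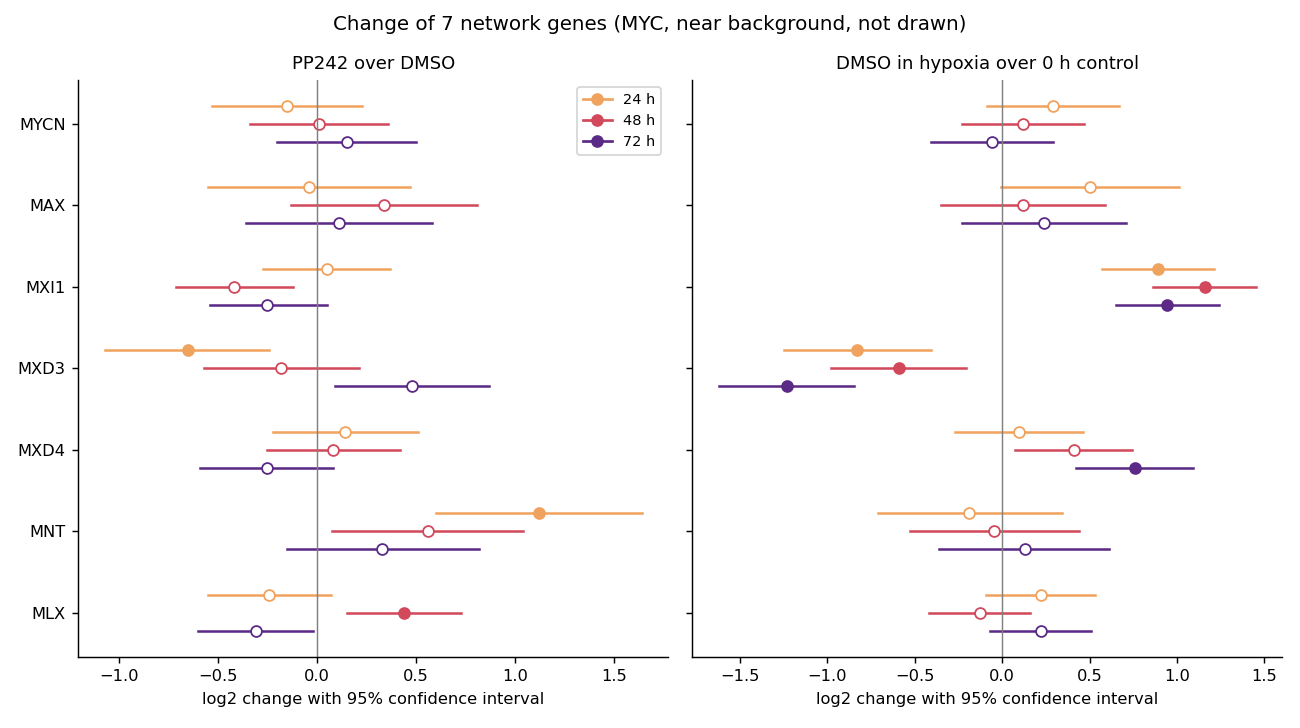
Log2 change with its 95% confidence interval (x axis) of 7 of the genes (y axis) for PP242 over DMSO (left) and DMSO over the 0 h control (right) at 24, 48 and 72 h, with filled points for an adjusted p under 0.05. MXI1 lies right of 0 and MXD3 left of 0 at all 3 times against the control, and MNT at 24 h (1.12) is the largest PP242 change.

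MXI1, a MAX partner known as a target of hypoxia-inducible factors, was higher in each DMSO group than in the 0 h control on its brightest probe. This contrast does not separate hypoxia from vehicle or culture time. Its probe ILMN_1794074 (gene at chr10:110207605-110287365) read 5.97, 6.07, 6.15 and 5.56 in the control, 6.86, 6.74 and 6.88 in DMSO at 24 h, 7.43, 6.99, 7.14 and 6.81 at 48 h, and 6.71, 6.98, 6.9 and 6.93 at 72 h. No DMSO array reached down to any control array. MXI1 rose by 0.89 at 24 h (SE 0.15, adjusted p = 0.00108), by 1.16 at 48 h (SE 0.14, adjusted p = 1.68e-06) and by 0.94 at 72 h (SE 0.14, adjusted p = 1.28e-05), which are 1.85-, 2.23- and 1.92-fold. Leaving out any 1 array kept all 3 calls, with adjusted p values up to 0.0133, but with only the groups compared the call at 24 h was lost (adjusted p = 0.054). The difference between 72 and 24 h in DMSO was 0.055 (interval -0.26 to 0.37).

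PP242 lay below DMSO for MXI1 at the later times, on either side of the threshold at 48 h according to the processing. At 48 h the PP242 arrays read 6.8, 6.77, 6.64 and 6.5, against 7.43, 6.99, 7.14 and 6.81 for DMSO. The arrays did not overlap, and the difference was -0.42 (SE 0.14, adjusted p = 0.0644; 0.0177 blocked by sample number, and 0.0293 without DMSO array 4). It also passed with each array scaled to 1 median (adjusted p = 0.0375), without background correction (0.0366), with offset 50 (0.0415) and in the authors' value table (0.0466). It did not pass with an intensity trend, with probe means, without the filter on dim probes or with only the groups compared. At 72 h it was -0.25 (adjusted p = 0.355) and at 24 h 0.052 (adjusted p = 0.866). A second probe for the same transcript (ILMN_1793915) rose by 0.76 in DMSO at 48 h over the control (SE 0.15, adjusted p = 0.000753 over probes) and read 0.35 at 24 h (adjusted p = 0.407) and 0.38 at 72 h (adjusted p = 0.0708). On this probe the 48 h arrays overlapped, at 5.91 to 6.24 with PP242 (mean 6.02) and 5.78 to 6.43 with DMSO (mean 6.22). The remaining 2 probes, for other transcripts, were above background on 10 and 3 arrays. With the mean of all 4 probes in place of the brightest, MXI1 at 24 h (0.35) and 72 h (0.28) no longer passed.

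Listed hypoxia markers were read in the same arrays. Of 8 markers, 6 were tested and all 6 rose in DMSO at 24, 48 and 72 h, with medians of 2.43, 3.22 and 3.08, against medians over all genes of -0.013, -0.016 and -0.0098. Of all genes, 1.01% passed at 24 h, and 6.71% and 11.2% were higher at 48 and 72 h. The mitophagy receptor BNIP3 rose by 2.51, 2.74 and 2.53, and the angiogenic factor VEGFA by 2.09, 3.61 and 3.93. With PP242, 3, 5 and 5 of the 6 were lower than with DMSO at 24, 48 and 72 h (11.3%, 5.76% and 5.46% of all genes were lower), VEGFA by -1.47 at 48 h and -1.88 at 72 h. The group means of MXI1 ran most like those of NUDT18 (Pearson's r = 0.989), RBM7 (0.987) and ANKRD37 (0.974), a hypoxia marker, over the 7 groups.

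MXD3, the family member linked to proliferating cells, was lower in each DMSO group than in the 0 h control and lowest with PP242 at 24 h. Its probe ILMN_1711904 (gene at chr5:177305499-177312752) read 6.74, 6.13, 6.65 and 6.67 in the control, 5.93, 5.55 and 5.67 in DMSO at 24 h, 6.13, 5.77, 6.03 and 5.89 at 48 h, and 5.21, 5.06, 5.52 and 5.47 at 72 h. It was above background on 21 of 27 arrays, and on 2 of the 4 at DMSO 72 h. MXD3 fell by 0.83 at 24 h (SE 0.2, adjusted p = 0.0388), by 0.59 at 48 h (SE 0.19, adjusted p = 0.0343) and by 1.23 at 72 h (SE 0.19, adjusted p = 1.36e-05). The call at 72 h held with any 1 array left out, with adjusted p values up to 0.000138. The call at 24 h was lost without control array 1, 3 or 4 or any 1 of the 3 DMSO arrays (adjusted p = 0.0571 to 0.213), and that at 48 h without control array 1, 3 or 4 or DMSO array 2, 3 or 4 (adjusted p = 0.0573 to 0.102). Without the arrays numbered 4 both were lost as well (adjusted p = 0.161 and 0.138).

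With PP242 at 24 h MXD3 read 4.83, 5.34, 4.88 and 5.22, against 5.93, 5.55 and 5.67 with DMSO, so the groups did not overlap, and 1 of the 4 PP242 arrays was above background. The fitted difference was -0.65 (SE 0.2, adjusted p = 0.0206), a value that rests on signals near background in the PP242 group. Without DMSO array 1 (adjusted p = 0.121), PP242 array 1 (0.0631) or PP242 array 3 (0.0649) the call was lost, as it was without background correction (-0.25, adjusted p = 0.0573) and in the authors' value table (-0.24, adjusted p = 0.0714). At 48 h the PP242 arrays read 5.12, 5.79, 6.23 and 5.97, against 6.13, 5.77, 6.03 and 5.89 with DMSO, and the log2 difference was -0.18 (adjusted p = 0.645). Without PP242 array 1 that difference was 0.039 (adjusted p = 0.932). At 72 h they read 5.49, 6.1, 5.8 and 5.79, against 5.21, 5.06, 5.52 and 5.47 with DMSO, a difference of 0.48 (adjusted p = 0.124).

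MXD3 was the 1 of the 8 genes whose PP242 effect differed between 24 and 72 h, by 1.13 (SE 0.28, adjusted p = 0.00465; 15.2% of all genes passed, 7.55% higher; blocked, 2 of the 8 and 24.7% of all genes). It too rests on the PP242 arrays at 24 h, near background, and without background correction it was 0.44 (adjusted p = 0.0158). This call held with any 1 array left out and without the arrays numbered 4 (1.24, adjusted p = 0.0105). Between 24 and 48 h 0 of the 8 effects differed (5.05% of all genes; 2 had an unadjusted limma p under 0.05, and blocked 1 passed, against 11.9% of all genes). Within the PP242 arrays MXD3 was higher at 72 h than at 24 h by 0.73 (SE 0.19, adjusted p = 0.0179; 1 of the 8 genes, against 5.9% of all genes; blocked 2, against 12.6%), a call lost without PP242 24 h array 1 or 3 or PP242 72 h array 2 (adjusted p = 0.072 to 0.0835) and without the arrays numbered 4 (adjusted p = 0.0573).

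Cell division genes are given beside MXD3. Of 12 listed, 11 were tested, and 10 were lower with PP242 at 24 h (median -2.11) and 5 at 48 h (median -0.89), while at 72 h 1 was higher, the replication helicase subunit MCM5 (0.69, not passing without any 1 of DMSO arrays 1 and 2 or PP242 arrays 2, 3 and 4), and 0 were lower. Over all genes, 11.3%, 5.76% and 5.46% were lower with PP242 at 24, 48 and 72 h, and 3.41% were higher at 72 h. In DMSO 0 moved at 24 h (1.01% of all genes passed), 1 fell at 48 h (7.11% of all genes) and 8 fell at 72 h (13.3% of all genes). The list's median at 72 h was -1.01. The cyclin CCNB1 was lower with PP242 by -2.21 (SE 0.21) and the mitotic kinase AURKB by -2.75 (SE 0.29) at 24 h. The PP242 effect on 10 of the 11 was higher at 72 h than at 24 h (median 2.05), against 7.55% of all genes. Whether a change in dividing cells has a part in the MXD3 values was not tested. The genes most like MXD3 over the 7 group means were TDP2 (0.968), HNRNPUL2 (0.958) and POLE, a DNA polymerase (0.958).

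MXD4, a repressor linked to cells leaving the cycle, was higher in DMSO at 72 h than in the 0 h control. Its probe ILMN_1756541 (714 to 1550 in intensity; gene at chr4:2247432-2262109) read 9.16, 9.34, 9.78 and 9.83 in the control, 9.61, 9.44 and 9.82 in DMSO at 24 h, 9.73, 9.82, 9.97 and 10.22 at 48 h, and 10.11, 10.15, 10.58 and 10.3 at 72 h. Every 72 h array lay above every control and every DMSO 24 h array. MXD4 was higher than in the control by 0.76 at 72 h (SE 0.16, adjusted p = 0.000891, 1.69-fold), a call kept with any 1 array left out. At 48 h the difference was 0.41 (adjusted p = 0.102; 0.0158 blocked by sample number) and at 24 h 0.096 (adjusted p = 0.841). From 24 to 72 h in DMSO it rose by 0.66 (SE 0.18, adjusted p = 0.00907; 1 of the 8 genes, against 16.6% of all genes), which was lost without DMSO 24 h array 2 (adjusted p = 0.0703) and with each array scaled to 1 median (0.37, adjusted p = 0.142). PP242 over DMSO was 0.14, 0.081 and -0.25 at 24, 48 and 72 h (adjusted p = 0.643, 0.839 and 0.423). The genes most like it were CNTN6 (0.979), a neuronal adhesion molecule, UNC5A (0.973), a netrin receptor, and PTPRN2 (0.971), a protein of secretory granules.

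MNT, a repressor and a partner of both MAX and MLX, was higher with PP242 at 24 h. At 24 h its probe ILMN_1792910 (201 to 484 in intensity over all arrays; gene at chr17:2384073-2401060) read 8.1, 7.86, 8.73 and 8.83 with PP242, against 7.2, 7.16 and 7.42 with DMSO. All 4 PP242 arrays lay above all 3 DMSO arrays, and MNT was higher by 1.12 (SE 0.25, interval 0.6 to 1.64, adjusted p = 0.00183, 2.17-fold). The call was kept with any 1 array left out (0.97 to 1.29, adjusted p up to 0.0131) and in each of the other alternatives. MNT was highest on array 4 in all 6 groups that have one, and DMSO at 24 h has none. Without the arrays numbered 4 the difference was 0.97 (adjusted p = 0.00154), and blocked by sample number it was 0.99.

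At 48 h the MNT arrays read 7.81, 7.69, 8.1 and 8.24 with PP242, against 7.22, 7.36, 7.42 and 7.59 with DMSO, again without overlap, and the difference was 0.56 (SE 0.24, adjusted p = 0.145; adjusted p = 0.00318 with the block). At 72 h they read 7.8, 7.41, 8.05 and 8.37, against 7.22, 7.49, 7.78 and 7.81, which overlap, with a difference of 0.33 (adjusted p = 0.481). The PP242 effect at 72 h minus that at 24 h was -0.79 (adjusted p = 0.14; -0.65 and adjusted p = 0.0145 with the block), and PP242 at 72 h minus 24 h was -0.47 (adjusted p = 0.302; 0.0168 with the block). DMSO over the control was -0.19, -0.046 and 0.13 at 24, 48 and 72 h (adjusted p = 0.784, 0.938 and 0.77), with control arrays at 7.11, 6.94, 7.52 and 8.21. The genes most like MNT were RINL (0.99), ERLIN2 (0.989) and DHX34 (0.985).

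**Figure D3:**
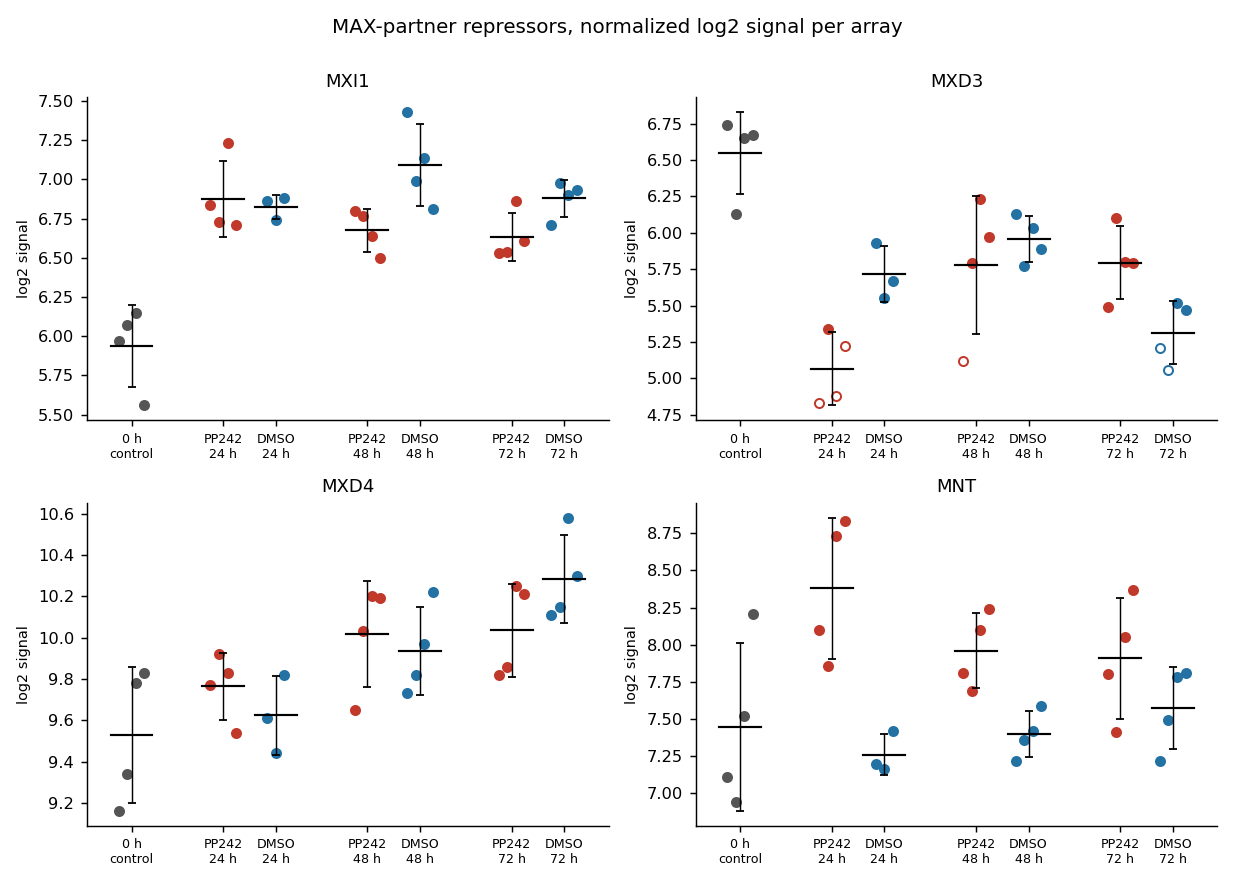
Normalized log2 signal (y axis) of MXI1, MXD3, MXD4 and MNT on each array by group (x axis), with the mean as a line and the SD as bars, and open points for arrays on which the probe was not above background. MXI1 is lowest in the 0 h control (mean 5.94), MXD3 lowest in PP242 at 24 h (5.07), MXD4 highest in DMSO at 72 h (10.29) and MNT highest in PP242 at 24 h (8.38).

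MLX, the partner of the glucose sensors MLXIP and MLXIPL, was higher with PP242 at 48 h in 1 of its 2 probes. The probe used for the gene (ILMN_2401618; gene at chr17:42567100-42573203) read 7.02, 6.66, 7.2 and 6.91 with PP242, against 6.34, 6.38, 6.58 and 6.72 with DMSO, which overlap. The difference was 0.44 (SE 0.14, adjusted p = 0.0429). It did not pass without any 1 of PP242 array 1, 3 or 4 or DMSO array 1, 2 or 3 (adjusted p up to 0.158), with each array scaled to 1 median (0.32, adjusted p = 0.29), with only the groups compared (adjusted p = 0.108) or without the filter on dim probes (adjusted p = 0.0595). The other probe (ILMN_1792207) read 5.35, 6.1, 5.52 and 5.64 with PP242, against 6.15, 5.52, 5.82 and 5.97 with DMSO, a difference of -0.21 (adjusted p = 0.533 over probes), and the mean of the 2 probes gave 0.11. At 24 and 72 h PP242 over DMSO was -0.24 (adjusted p = 0.297) and -0.31 (adjusted p = 0.2). The effect at 48 h minus that at 24 h was 0.68 (adjusted p = 0.0534; 0.0237 with the block). The patterns nearest to MLX were those of NCMAP (0.851), SLC38A4 (0.849) and ATAT1 (0.835), weaker than for the other genes.

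**Figure D4:**
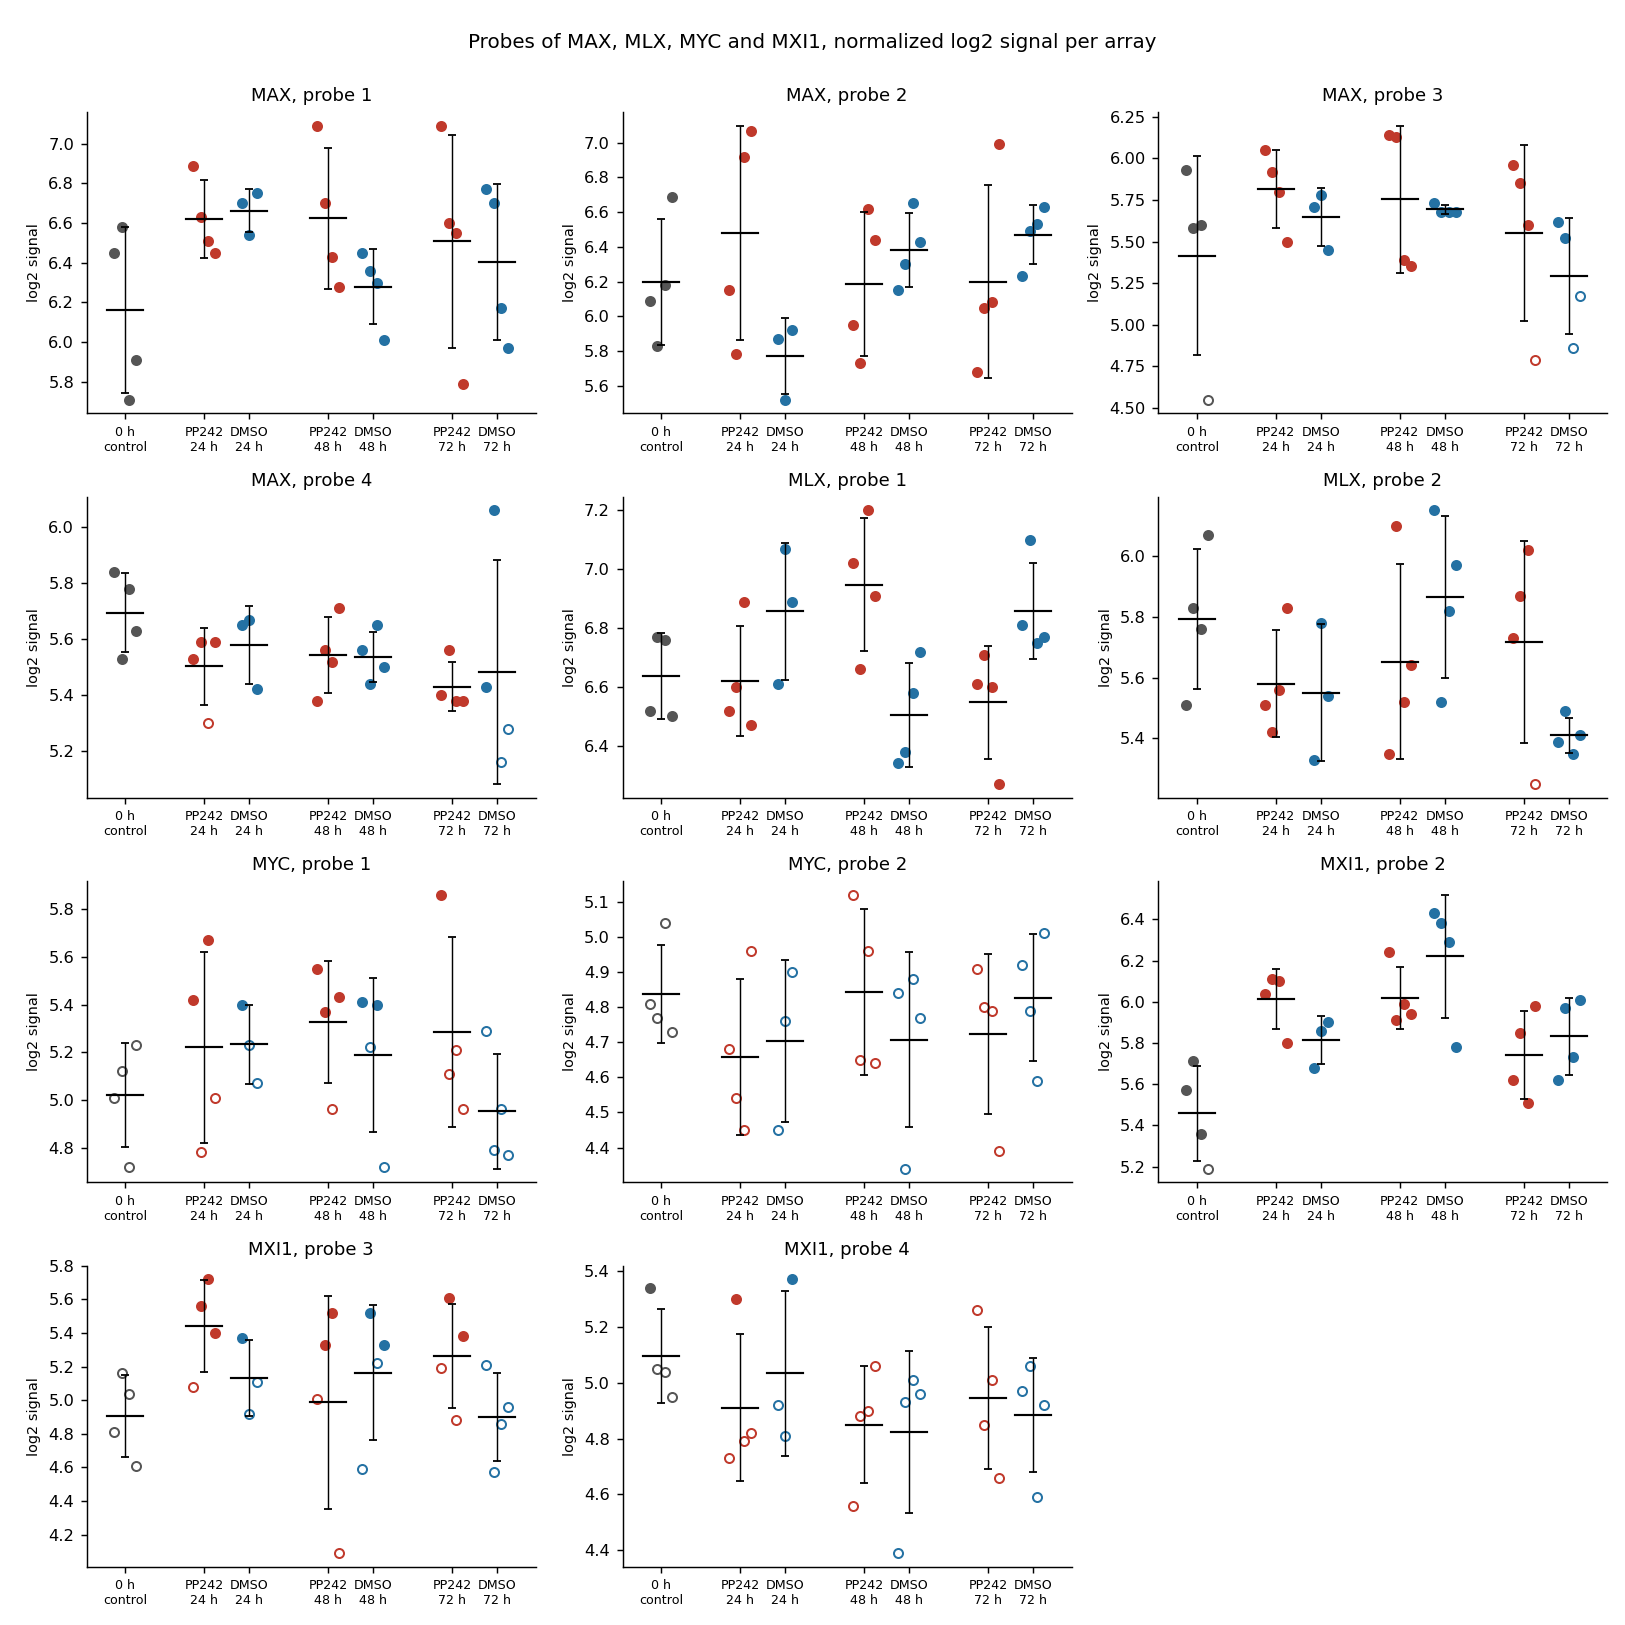
Normalized log2 signal (y axis) of the 4 MAX probes, the 2 MLX probes, the 2 MYC probes and the 3 further MXI1 probes on each array by group (x axis), with the mean as a line, the SD as bars and open points where the probe was not above background. The MLX probes differ in direction at 48 h (0.44 and -0.21 for PP242 over DMSO), and the second MYC probe has open points on every array.

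Of 3 listed targets of MLX dimers, TXNIP and ARRDC4 were higher with PP242 and KLF10 did not pass. TXNIP, an inhibitor of glucose uptake, read 11.9, 11.64, 12.05 and 11.57 with PP242 at 24 h, against 10.24, 9.97 and 10.32 with DMSO. At 72 h it read 11.43, 10.9, 11.13 and 11.23 with PP242, against 7.7, 7.81, 8.09 and 7.75 with DMSO. The groups were far apart at each time, and TXNIP was higher with PP242 by 1.61 (SE 0.23, adjusted p = 8.42e-06), 3.07 (SE 0.21, adjusted p = 1.62e-10) and 3.34 (SE 0.21, adjusted p = 2.26e-11) at 24, 48 and 72 h. Relative to the control, TXNIP in DMSO was 0.81 at 24 h (adjusted p = 0.0983; 0.0359 blocked), and it was lower by -0.91 at 48 h (adjusted p = 0.00374; 0.0693 with only the groups compared) and -1.53 at 72 h (adjusted p = 3.86e-06). Its relative ARRDC4, 0.69 higher in DMSO than in the control at 24 h (adjusted p = 0.0491, lost when any 1 of the 7 arrays was left out, up to 0.197), was higher with PP242 by 1.42 at 48 h and 1.28 at 72 h (adjusted p = 6.5e-07 and 3.18e-06), and by 0.44 at 24 h (adjusted p = 0.0682; 0.0357 with the block). KLF10, a transcription factor, was 0.35, 0.49 and -0.029 (adjusted p = 0.375, 0.21 and 0.969; blocked, 0.0428, 0.0372 and 0.936). Of the 3, 1, 2 and 2 were thus higher with PP242 at 24, 48 and 72 h, against 10.4%, 4.41% and 3.41% of all genes.

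Other genes of the extended network moved little. Of 5 listed, 4 were tested. MXD1, a further MAX partner and repressor, read 7.17, 7.03, 7.1 and 7.1 with PP242 at 48 h, against 6.7, 6.71, 6.54 and 6.73 with DMSO, and was higher by 0.43 (SE 0.1, adjusted p = 0.00695), a call lost with each array scaled to 1 median (0.3). At 24 h it was 0.3 (adjusted p = 0.0563; 0.0456 with the block). MGA, a large MAX partner with a T-box domain, was 0.48 at 24 h (adjusted p = 0.0817; 0.0187 with the block). In DMSO over the control 0 of the 4 passed at 24, 48 and 72 h, against 1.01%, 13.8% and 24.5% of all genes. With 4 genes these counts say little.

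**Figure D5:**
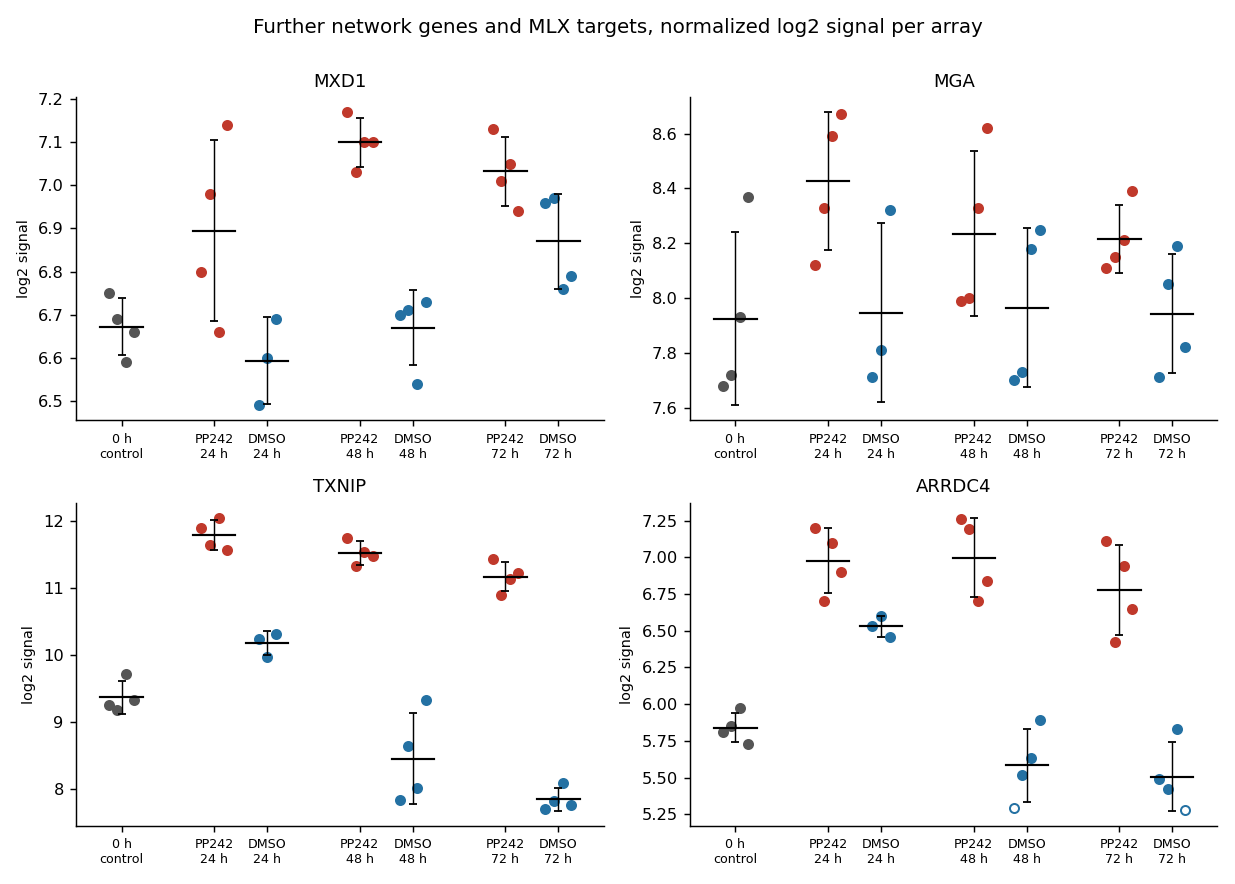
Normalized log2 signal (y axis) of MXD1, MGA, TXNIP and ARRDC4 on each array by group (x axis), with the mean as a line, the SD as bars and open points where the probe was not above background. TXNIP with PP242 stays between 10.9 and 12.05, above every DMSO array, and DMSO arrays at 72 h lie between 7.7 and 8.09.

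Of 37 genes listed as activated by MYC proteins, 30 were tested. In DMSO over the control 0 moved at 24 h (median 0.083), 11 fell and 1 rose at 48 h (median -0.16), and 12 fell and 2 rose at 72 h (median -0.25), against 7.11% and 13.3% of all genes falling at 48 and 72 h. The helicase subunit MCM7 fell by 1.25 (SE 0.11, adjusted p = 1.71e-09), the ribosome assembly factors MRTO4 by 1 (SE 0.12) and PPAN by 1.04 (SE 0.17), and PA2G4 by 0.81 (SE 0.13) at 72 h. From 24 to 72 h in DMSO 10 fell and 0 rose (median -0.29), against 8.76% of all genes falling. With PP242 over DMSO, 6 were lower and 2 higher at 24 h (median -0.18), 1 and 1 at 48 h (median 0.064), and 1 lower and 2 higher at 72 h (median 0.049). Over all genes, 11.3%, 5.76% and 5.46% were lower and 10.4%, 4.41% and 3.41% higher at these times. At 24 h MCM7 was lower by -0.89 and FBL, a nucleolar methyltransferase, by -0.51, while the repair enzyme APEX1 (0.74) and the transcription factor TFAP4 (0.67) were higher.

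Genes listed as repressed by MYC proteins went both ways. Of 12 listed, 8 were tested. In DMSO over the control 2 rose and 2 fell at 72 h (median -0.15; 11.2% and 13.3% of all genes), the rises being NDRG1 (5.52), which is also on the hypoxia list, and DKK3 (0.65), and the falls NDRG2 (-1) and the stress gene GADD45A (-0.75). With PP242 over DMSO, 1 was lower at 24 h (11.3% of all genes), 2 at 48 h (5.76%), and 2 lower (5.46%) and 1 higher (3.41%) at 72 h, where NDRG1 was -1.83 and DKK3 -1.29. The medians were -0.17, -0.35 and -0.15. NDRG2, higher at 72 h (0.45, adjusted p = 0.0354), did not pass without the arrays numbered 4 (0.28, adjusted p = 0.214).

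Of 25 cofactors and turnover factors of MYC proteins, 19 were tested. With PP242 at 24 h 3 were lower and 1 higher, near the shares over all genes (11.3% and 10.4%). AURKA, a kinase that also binds and stabilises MYCN protein, was lower by -2.42 (SE 0.23, adjusted p = 6.64e-08), PLK1 by -1.7 (SE 0.2) and the phosphatase subunit PPP2CA by -0.62, and the corepressor SIN3B was higher by 0.73. At 48 h 4 were lower (5.76% of all genes), among them HDAC1 (-0.48), SIN3A (-0.47) and AURKA (-1.24), and at 72 h 2 (5.46% of all genes), SIN3A (-0.62) and the acetyltransferase KAT2A (-0.41). SIN3A, the scaffold through which MXD proteins repress, rose in DMSO over the control by 0.88 at 48 h and 0.84 at 72 h (SE 0.13 each). PLK1 is also on the cell division list. The list's medians for PP242 over DMSO were -0.0083, -0.094 and -0.064. SIN3B did not pass without DMSO array 1 or 2 or PP242 array 3 or 4 (adjusted p up to 0.0862), SIN3A at 48 h without DMSO array 1 or PP242 array 1 or 4 (up to 0.0911), and KAT2A without any 1 of 5 arrays (up to 0.201).

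Of the 9 tested markers of other cells, 2 (ACTA2 and CD14) passed in a PP242 or hypoxia comparison. ACTA2, a smooth muscle actin, was lower with PP242 at 48 h (-2.03) and 72 h (-2.07) and in DMSO at 24 h relative to the control (-1.46), and CD14 was lower with PP242 at 24 h (-0.9) and in DMSO at 72 h relative to the control (-0.65). The background-corrected level summed over the probes of these 9 genes, which differ in brightness, ranged from 215 to 245 with PP242 and 245 to 300 with DMSO at 24 h, 183 to 268 and 308 to 444 at 48 h, and 214 to 287 and 460 to 575 at 72 h, against 328 to 546 in the control. Sympathoadrenal markers had medians of 0.19, 0.11 and 0.056 for PP242 over DMSO, with 2, 1 and 2 of 10 higher and 0, 0 and 1 lower, and in DMSO over the control 1, 3 and 4 were higher and 0, 0 and 1 lower. Of the 9 markers of other cells, 1 was lower with PP242 at each time and 0 were higher. In DMSO over the control 1, 0 and 1 were lower and 0 were higher. Over all genes, 10.4%, 4.41% and 3.41% were higher with PP242 at 24, 48 and 72 h, and 11.3%, 5.76% and 5.46% lower. In DMSO over the control 1.01% of all genes passed at 24 h. At 48 h 6.71% were higher and 7.11% lower, and at 72 h 11.2% were higher and 13.3% lower. The part of these markers in the network values was not tested.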

How the data were processed

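Total RNA of 27 samples was labelled with biotin and hybridised to Illumina bead arrays, per the labels' protocols. The authors deposited a non-normalized table of whole-number signal intensity for 48107 probes. They also deposited a value table of intensity for 27367 probes, which matched a quantile normalization of each array within 2.12% and has a median of 109.561 per array. The software and its version are not given in the sources used here. The tables hold no detection p-values, although the plan asked for them. As a stand-in, the mode of each array's density (bandwidth 1.5) served as background, with the SD mirrored from below it. The 31318 probes with p under 0.05 against it on 3 or more arrays were used.

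Intensities were corrected by normexp (offset 16), put on a log2 scale and quantile normalized. In the main model, differences between groups were tested within a probe. Levels of different probes were set side by side to rank signals, to choose a gene's probe and to sum the markers of other cells. Probes of the value table had 1 symbol (23495), several (1) or none (3871), and 23471 were matched to the reference gene table with 0 symbols changed. The brightest usable probe on average stood for a gene (12664 genes, 9703 with 1 such probe). Promoter sequences are RefSeq's, from GRCh38.p14. Intensities give no counts, so the number of arrays limits the precision, and 0 columns were left unmapped.

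Groups were compared with limma 3.58.1 in R 4.3.3 in 1 model over 7 groups, two-sided, with Benjamini-Hochberg adjustment over all genes within each of 10 comparisons at 0.05. The script was tested on simulated data. Same-numbered arrays were taken as paired where every same-number pair correlated above 0.1 after removal of group means. This held in 9 of 10 comparisons (lowest values 0.122 to 0.246) but not in DMSO at 72 h over the control (0.0982), and the block is an alternative. The labels do not say what a number shares.

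The 8 genes, the 10 lists and the tests were chosen with earlier results of these data known. Named from each list were up to 4 genes with the smallest p in a comparison, and as like genes the 3 with the highest Pearson's r over 7 group means among genes spanning at least 0.5, skipping LOC and orf symbols. Comparisons with PP242 and with the control share the DMSO arrays.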

Additional observations from a re-analysis of the deposited data

Results flagged for a closer look

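In 48 sets of 4 arrays of 1 gene and group, the highest or lowest array was compared with the rest by Dixon's ratio (gap over range, against its 95% value for 4 arrays), which chance exceeds in about 1 of 20 sets. MYCN on DMSO 48 h array 3 was 14.01, below the other arrays at 14.24 to 14.27 (ratio 0.893). MYCN on DMSO 72 h array 2 was 14.19, above the other arrays at 13.94 to 13.97 (ratio 0.867). MXD3 on control array 2 was 6.13, below the other arrays at 6.65 to 6.74 (ratio 0.854). The PP242 effect on MXD3 differed between 72 and 24 h by 1.13 (limma, SE 0.28, adjusted p = 0.00465), with all 4 PP242 arrays at 24 h below every DMSO array, and arrays that overlap at 72 h.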

How the results depend on the processing

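The alternatives were an offset of 50, no background correction, each array scaled to 1 median, no filter on dim probes, the authors' value table, the mean of a gene's probes, only the groups compared, an intensity trend, the sample number as a replicate block, each array left out and, chosen after seeing the data, the arrays numbered 4 left out. A slide term was not run because headers and labels name no slide. No result turned its sign while called, and of 1528 alternative values of the 8 genes 1470 stayed on their side of the threshold, 39 lost and 19 gained a call. Most of these values belong to results that were never called, and uncalled values that turned sign are counted as staying. The share that stayed is therefore no measure of how firm the calls are.

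With the replicate block, genes passing came to 2503 and 2162 for PP242 at 48 and 72 h (1288 and 1124 without), 361 and 2988 for DMSO over the control at 24 and 48 h (128 and 1750), 3200 for DMSO 72 over 24 h (2098), 1593 for PP242 72 over 24 h (747), and 1501 and 3131 for the effects at 48 and 72 h minus 24 h (640 and 1920). The pairing moved the network genes passing to 3 for PP242 at 48 h (1 without), 3 for DMSO at 48 h (2 without), 2 for PP242 72 over 24 h, and 1 and 2 for the effects at 48 and 72 h minus 24 h. With only the groups compared, 67 (DMSO 24 h), 955 (DMSO 48 h) and 353 (PP242 72 over 24 h) genes passed, and with 1 median 461 in the last. That scaling moved the median of all genes to between -0.086 and 0.06, and the share of calls that were higher to 23.8%, 19.7% and 29.1% for PP242 over DMSO at 24, 48 and 72 h (47.8%, 43.4% and 38.4% in quantile normalization), 29.5% and 29.2% for DMSO at 48 and 72 h (48.6% and 45.7%) and 23.5% for DMSO 72 over 24 h (47.1%).

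Network genes passing were 1 for PP242 at 24 h without background correction and in the value table. For PP242 at 48 h they were 0 with probe means or no filter, and 2 without background correction, with offset 50 and in the value table. For DMSO 24 h they were 1 with probe means or without number 4 and 0 with only the groups compared, for DMSO 48 h 1 without number 4, for DMSO 72 over 24 h 0 with 1 median, for PP242 72 over 24 h 0 without number 4, and for the effect at 48 minus 24 h 1 without background correction, with offset 50 and in the value table.

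Leaving out 1 array gave 1885 to 2858, 903 to 1372 and 835 to 995 genes for PP242 at 24, 48 and 72 h, and 1 to 2, 0 to 2 and 0 to 0 network genes. It gave 80 to 145, 1189 to 1886 and 2655 to 3002 genes for DMSO over the control, and 1 to 2, 1 to 2 and 3 to 3 network genes. It gave 1357 to 1843 and 416 to 790 genes for 72 over 24 h in DMSO and in PP242, with 0 to 1 network gene each, and 340 to 770 and 1462 to 2000 for the effects at 48 and 72 h minus 24 h, with 0 to 1 and 1 to 1. The lowest count for PP242 at 24 h came without DMSO 24 h array 1. Signals near background limit MYC and MXD3, whose log2 changes shrink without background correction.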
